A study of Mus musculus with 6 samples.

Results

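Microtubule-associated proteins bind the microtubules that run through axons and dendrites, and the transcripts of 10 such genes (Map1a, Map1b, Map1s, Map2, Map4, Map6, Mapt, Dclk1, Stmn2 and Stmn3) were followed in cultured mouse cortical neurons with and without FMRP. The rows were taken by gene name, and all 10 were found among the 55367 rows of the count table. All 10 also had enough reads to be among the 16976 genes tested. RNA-seq had been carried out on cerebral cortical cells of C57BL/6J pups at postnatal day 1, grown for 2 days in vitro. There were 3 WT and 3 Fmr1-KO libraries, the latter from mice that lack FMRP, the RNA-binding protein missing in fragile X syndrome. According to the methods of the study, cells positive for the astrocyte antigen ACSA2 and myelin had been depleted before plating. The sources used here give neither the sex of the pups nor the number pooled into a culture. They describe the samples as independently derived but name no litter or culture, and p-values measure the spread between these libraries alone.

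Microtubules are polymers of tubulin whose growth, stability and spacing are set by the proteins that bind them. Structural microtubule-associated proteins (MAPs) coat and stabilize the polymer, doublecortin-type proteins bind the lattice of newly growing neurites, and stathmins act in the opposite way, by holding tubulin dimers and promoting disassembly. In cortical neurons this machinery supports migration, the outgrowth of neurites and the distinction between axon, where tau is concentrated, and dendrite, where MAP2 is. Map1b mRNA is a long-known binding partner of FMRP, and the study lists Map1b and Mapt, 2 of the 10 genes, among its targets of nonsense-mediated mRNA decay (NMD). Those targets were defined in mouse neuroblastoma cells, by knockdown of the NMD factor UPF1 and by RNA bound to phosphorylated UPF1. By RT-qPCR, the study also found both mRNAs to be low in early postnatal Fmr1-KO cortex.

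Library totals ran from 30348556 to 35126207 counts, so depth was similar throughout. Fmr1, the targeted gene, was at 50.6% of its WT level in Fmr1-KO, with no overlap between the genotypes. Markers showed that the cultures were mixed. All 14 pan-neuronal markers were detected, with a summed level of 2397 to 2489 CPM (read counts scaled to library size by the TMM method) in WT and 1767 to 1850.2 CPM in Fmr1-KO, while 7 astrocyte markers summed to 4574 to 4688 CPM in WT and 4199 to 4503 CPM in Fmr1-KO. The astrocyte markers were divided, with 3 lower, 2 higher and 2 not passing, and a median log2 fold-change of 0.03. Gfap, the most abundant of them, fell from a mean of 2649 to 2297 CPM and weighed most in their sum. The 8 proliferation markers were all higher in Fmr1-KO (595 to 630.5 CPM summed in WT, 1028 to 1085 CPM in Fmr1-KO). Oligodendrocyte lineage markers were lower (8 of 8 genes, 1296 to 1366 against 795 to 842 CPM), as were 7 of 8 microglia markers (140.2 to 150.2 against 72.3 to 87.6 CPM). Of 8 progenitor markers, 4 rose and 0 fell, with summed levels of 2382 to 2396 CPM in WT and 2692 to 2762 CPM in Fmr1-KO. No marker of any of these lists was at 0 in every library. In bulk RNA of this kind, fewer cells of a type and less RNA per cell cannot be told apart, and the part of these markers in the results below was not tested.

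Of the 10 genes, 9 passed as lower in Fmr1-KO (adjusted P under 0.05 by edgeR), 0 as higher, and Map1s did not pass. The 10 genes had been chosen with earlier results of these data known. Their counts are therefore a description and no test of the set against other genes. Across all tested genes, 42.6% were called in either direction, 21.9% as lower and 20.7% as higher. Among the 6193 tested genes whose mean level lay in the range of the 10 genes (40.9 to 1650.2 CPM), 29.4% were called lower and 23.5% higher. The median log2 fold-change of the 10 genes was -0.44, against 0.01 for all tested genes and -0.01 for those in the same range of levels. The Fmr1-KO and WT libraries did not overlap for the same 9 genes, whereas 26.3% of all tested genes had every Fmr1-KO library below every WT library and 25.4% had every one above. The sizes differed widely, from a decrease of 36.4% for Stmn2 to one of 7.39% for Map2. Together the 10 genes took 0.691%, 0.695% and 0.680% of the reads in WT replicates 1, 2 and 3, and 0.529%, 0.532% and 0.541% in Fmr1-KO replicates 1, 2 and 3.

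**Figure D1:**
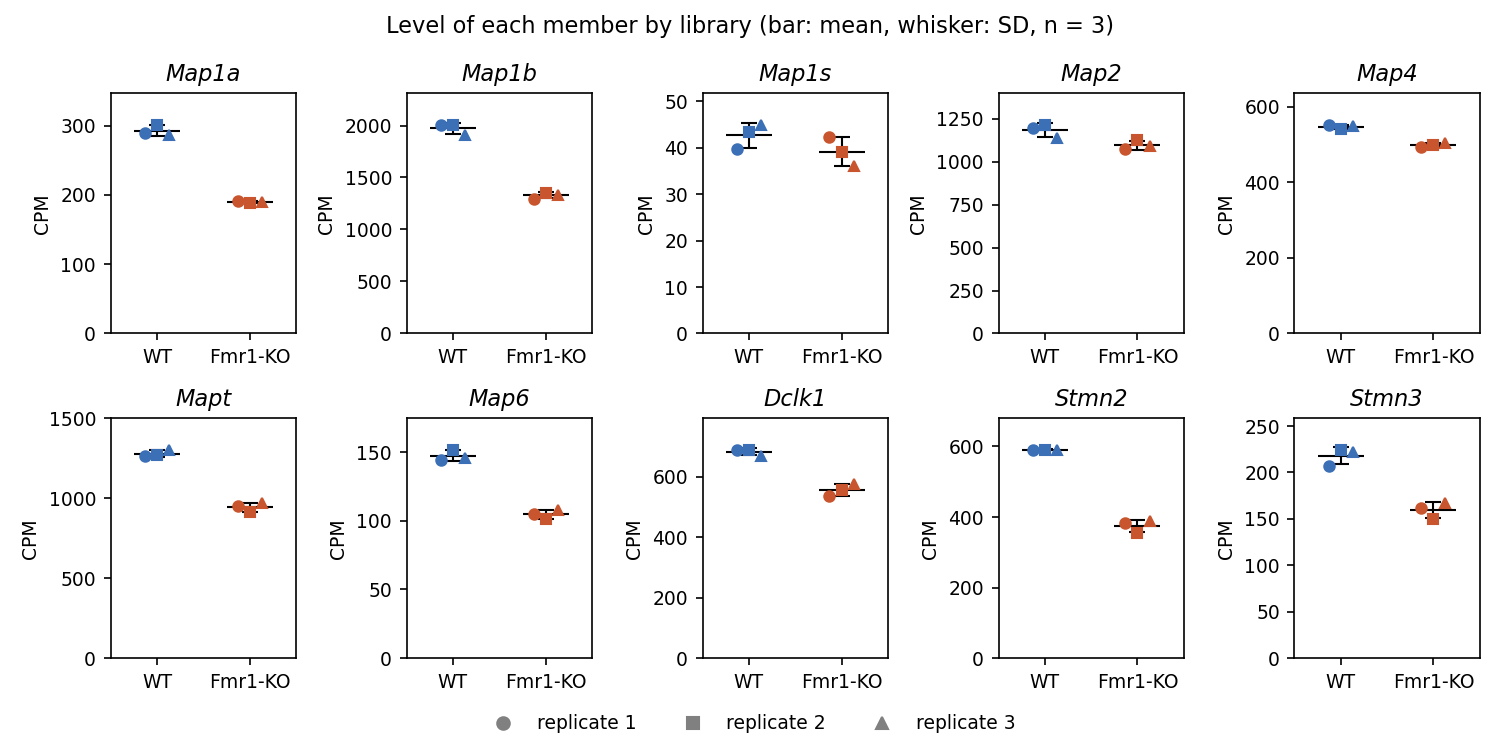
Level of each gene in CPM (vertical axes, from 0) in the 3 WT and 3 Fmr1-KO libraries, with the mean and SD. Fmr1-KO points lie below WT points in every panel but that of Map1s, where they overlap, and the separation is narrow for Map2 and Map4.

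The MAP1 family was examined first. Its members are made as precursors that are cleaved into a heavy and a light chain, with MAP1B prominent in growing axons and MAP1A in more mature neurons. Map1a lies on the plus strand of chromosome 2 from 121289600 to 121310832 (GRCm38, GENCODE M21). Its levels were 289.6, 301 and 286 CPM in WT replicates 1, 2 and 3, and 191, 188 and 190.3 CPM in the Fmr1-KO replicates. All Fmr1-KO libraries were thus well below the lowest WT library. Mean levels were 292 ± 7.93 CPM in WT and 189.5 ± 1.62 CPM in Fmr1-KO (SD, n = 3 each). The log2 fold-change of -0.62 (SE 0.03) had an adjusted P of 8.75e-13 by edgeR.

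Map1b, on the minus strand of chromosome 13 from 99421446 to 99516540, was the most abundant of the 10 by read count and ranked 17 of the 16976 tested genes. It had 69759, 66220 and 63733 counts in WT and 42135, 41369 and 46429 counts in Fmr1-KO, or 2007, 2003 and 1909.8 CPM against 1296, 1351 and 1334 CPM. The groups were separated by a wide margin, the highest Fmr1-KO library reaching 70.8% of the lowest WT library. The log2 fold-change of -0.57 (SE 0.03) had an adjusted P of 1.78e-12 by edgeR. The ratio of Map1a to Map1b counts was 0.144, 0.150 and 0.150 in WT and 0.147, 0.139 and 0.143 in Fmr1-KO, with overlap between the genotypes. The difference in its log2 was -0.05 (exact permutation test, 2-sided, P = 0.2, n = 3 per genotype). As only 3 libraries per genotype were compared, such a test cannot go below 0.1, and no difference of any size could have passed a threshold of 0.05.

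Map1s, a MAP1 gene expressed in many tissues besides the nervous system, did not pass the test. It lies on chromosome 8 from 70905932 to 70917529 on the plus strand and was the least abundant of the 10. Its levels were 39.7, 43.5 and 44.9 CPM in WT and 42.4, 39.0 and 36.1 CPM in Fmr1-KO. Fmr1-KO replicate 1 lay above WT replicate 1, so that the groups overlapped. The log2 fold-change of -0.13 (SE 0.06) had an adjusted P of 0.0782 by edgeR, and the call depended on single libraries. It was -0.18 (adjusted P 0.0261) without WT replicate 1 and -0.19 (adjusted P 0.0159) without Fmr1-KO replicate 1, and these passed. It was -0.07 (adjusted P 0.381) without Fmr1-KO replicate 3. Map1s also passed when no filter on low counts was applied (adjusted P 0.0419). Its difference from Map1a and Map1b was not tested.

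The sequences just upstream of Map1a and Map1b are shown because these paralogs had close log2 fold-changes. Each is the 250 bases before the annotated start (RefSeq, GRCm38.p6), written 5′ to 3′ on the strand of the gene, with matches on either strand to 5 short motifs in capitals. The motifs searched were the TATA box (TATAAA), the CCAAT box (CCAAT), the GC box (GGGCGG), the cAMP response element (TGACGTCA) and an E-box (CACGTG). The Map1a window is chr2:121289352-121289601 (plus strand) and the Map1b window is chr13:99516603-99516852 (minus strand).
Map1a: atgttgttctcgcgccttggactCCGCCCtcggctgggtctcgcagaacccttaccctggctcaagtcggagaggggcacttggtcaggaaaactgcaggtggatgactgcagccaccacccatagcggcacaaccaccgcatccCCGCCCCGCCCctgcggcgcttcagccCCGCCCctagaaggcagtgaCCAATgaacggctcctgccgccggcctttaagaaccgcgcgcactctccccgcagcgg
Map1b: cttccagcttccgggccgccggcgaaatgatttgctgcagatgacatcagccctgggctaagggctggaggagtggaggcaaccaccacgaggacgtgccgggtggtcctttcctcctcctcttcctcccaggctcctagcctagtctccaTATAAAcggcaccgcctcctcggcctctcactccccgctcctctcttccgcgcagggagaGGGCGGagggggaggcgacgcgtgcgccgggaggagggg
Map1a had 4 GC boxes, the pair in the middle overlapping by 1 base, and a CCAAT box 58 bases before the start. Map1b had a TATA box 99 bases and a GC box 39 bases before the start. Their GC content was 66.0% and 66.4%, above the median of 52.4% over the 32851 windows of the table. A GC box was found in 32.7%, a CCAAT box in 33.8% and a TATA box in 12.4% of all windows, so such matches are common and describe the sequence only.

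Map2, Mapt and Map4 were then compared. Their proteins share related microtubule-binding repeats near the carboxyl end but differ in where they are found, MAP2 in the cell body and dendrites, tau (Mapt) in axons, and MAP4 in most cell types, dividing ones included. Mapt is on the plus strand of chromosome 11 from 104231390 to 104332090. Its levels were 1265, 1269 and 1305 CPM in WT and 953, 913 and 969 CPM in Fmr1-KO. The groups lay far apart compared with their spread, with means of 1279.7 ± 22.1 and 945 ± 28.5 CPM (SD, n = 3 each). The log2 fold-change of -0.44 (SE 0.03) had an adjusted P of 1.20e-10 by edgeR.

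Map2, on the plus strand of chromosome 1 from 66175273 to 66442583, changed least of the 10. Its levels were 1198, 1215 and 1140.2 CPM in WT and 1073, 1125 and 1093 CPM in Fmr1-KO. The highest Fmr1-KO library was at 98.7% of the lowest WT library, so the groups barely separated. A log2 fold-change of -0.11 (SE 0.03) was found, with an adjusted P of 0.00532 by edgeR. Map4, on the plus strand of chromosome 9 from 109931460 to 110083955, was at 552, 540.0 and 548 CPM in WT and 493, 498 and 504 CPM in Fmr1-KO. Its libraries were tight within each genotype, and the log2 fold-change of -0.13 (SE 0.03) had an adjusted P of 0.000469 by edgeR. Neither Map2 nor Map4 passed when a fold change above 1.2 was required (adjusted P 1.0 for both by edgeR).

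Ratios within a library set these genes against each other directly. The ratio of Map2 to Mapt counts was 0.947, 0.958 and 0.874 in WT and 1.13, 1.23 and 1.13 in Fmr1-KO, without overlap. The difference in the log2 ratio was 0.33, with SDs of 0.07 in both genotypes (exact permutation test, 2-sided, P = 0.1, n = 3 per genotype, the smallest possible). Per kilobase of annotated exon, Mapt was above Map2 in both genotypes (169.9 against 72.0 CPM in WT, 125.5 against 66.7 CPM in Fmr1-KO). The ratio of Map4 to Mapt counts was 0.436, 0.426 and 0.420 in WT and 0.518, 0.545 and 0.520 in Fmr1-KO, again without overlap, a log2 difference of 0.30 (exact permutation test, 2-sided, P = 0.1, n = 3 per genotype). Such ratios do not depend on scaling. With 4 ratios compared, the Benjamini-Hochberg adjusted value was 0.133 for the 3 that reached 0.1 and 0.2 for that of Map1a to Map1b (exact permutation tests).

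**Figure D2:**
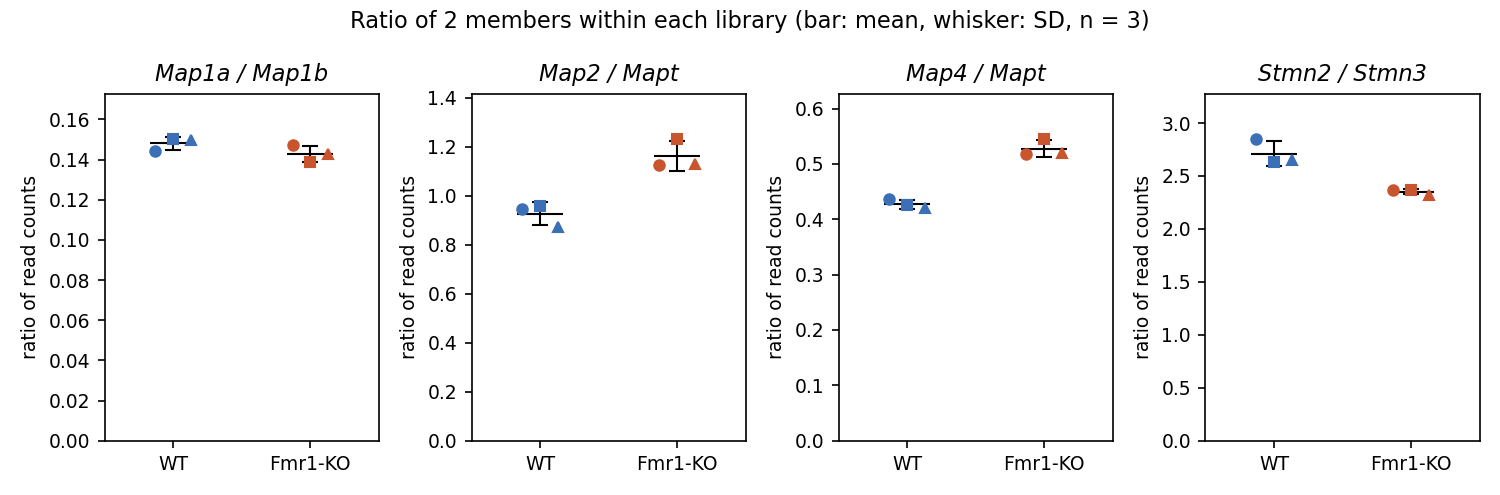
Ratio of the read counts of 2 genes within each library (vertical axes, from 0) for 4 pairs, with the mean and SD of 3 libraries per genotype. The Map2 / Mapt and Map4 / Mapt ratios of all Fmr1-KO libraries lie above those of WT, the Stmn2 / Stmn3 ratios lie below, and the Map1a / Map1b ratios overlap.

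For Map2 and Map4, the genes of the smallest called changes, the 250 bases upstream of the start are given in the same notation. The windows are chr1:66175079-66175328 and, for the first of 2 annotated starts of Map4, chr9:109931524-109931773, both on the plus strand. The RefSeq starts differ from the gene starts of GENCODE given above, so that the Map2 window runs into the GENCODE gene at its end and the Map4 window lies wholly within it.
Map2: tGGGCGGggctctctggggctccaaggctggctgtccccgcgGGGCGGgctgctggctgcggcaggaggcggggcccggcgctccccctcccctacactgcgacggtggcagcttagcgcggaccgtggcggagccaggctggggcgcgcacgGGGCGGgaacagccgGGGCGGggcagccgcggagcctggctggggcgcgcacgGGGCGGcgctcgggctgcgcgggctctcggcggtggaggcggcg
Map4: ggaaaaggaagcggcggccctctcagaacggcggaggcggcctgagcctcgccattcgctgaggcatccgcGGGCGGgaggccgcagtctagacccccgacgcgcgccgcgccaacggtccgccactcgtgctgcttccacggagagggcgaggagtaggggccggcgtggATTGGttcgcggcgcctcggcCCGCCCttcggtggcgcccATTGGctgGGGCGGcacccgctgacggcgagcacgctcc
The Map2 window had 5 GC boxes and a GC content of 81.2%, and that of Map4 had 3 GC boxes, 2 CCAAT boxes and a GC content of 74.0%. RefSeq windows were matched for 7 of the 10 genes, 9 windows in all, and 4 of the 9 held a GC box, 4 a CCAAT box and 1 a TATA box, and 0 of the 9 held the cAMP response element or the E-box (1.55% and 6.02% of all windows). Mapt, Map6 and Stmn2 had no entry.

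Map6 encodes a protein, also called STOP, that makes neuronal microtubules resistant to cold. Located on the plus strand of chromosome 7 from 99267447 to 99337137, it was at 144, 152 and 145 CPM in WT and 105, 101 and 108 CPM in Fmr1-KO. The groups were clearly apart, with a log2 fold-change of -0.49 (SE 0.03, adjusted P 2.67e-10 by edgeR). Dclk1, on the plus strand of chromosome 3 from 55242364 to 55539068, encodes a kinase that carries the microtubule-binding domains of doublecortin. Its levels were 689.6, 689 and 669 CPM in WT and 536, 556 and 575 CPM in Fmr1-KO, again without overlap. The log2 fold-change of -0.30 (SE 0.03) passed with an adjusted P of 7.44e-08 by edgeR, but not when a fold change above 1.2 was required (adjusted P 0.258).

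Other genes of the doublecortin family were measured as well. Dcx, encoding doublecortin itself, and Dclk2 rose slightly (log2 fold-changes of 0.08 and 0.20, adjusted P 0.0312 and 9.14e-06 by edgeR), while Dclk3, of low level, fell (-0.49, adjusted P 2.67e-05). These relatives were named for the family after their values had been seen.

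The stathmins Stmn2 and Stmn3 were both lower. STMN2 (SCG10) and STMN3 (SCLIP) are neuronal stathmins anchored to membranes, and STMN2 is known as a growth cone protein. Stmn2, on the plus strand of chromosome 3 from 8509360 to 8561606, was at 591, 591 and 589.7 CPM in WT and 382, 356 and 388 CPM in Fmr1-KO. The WT libraries were almost identical (SD 0.816 CPM), those of Fmr1-KO were more spread (SD 17.1 CPM), and all of the latter were far lower. Whether the spread of Stmn2 differs between genotypes was not tested. Its log2 fold-change of -0.65 (SE 0.03, adjusted P 9.64e-13 by edgeR) was the largest among the 10, and 5.18% of all tested genes had a lower one.

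Stmn3, on the minus strand of chromosome 2 from 181306459 to 181314500, was at 207, 225 and 222 CPM in WT and 162, 150.4 and 167 CPM in Fmr1-KO. Its highest Fmr1-KO library reached 80.6% of the lowest WT library, and a log2 fold-change of -0.45 (SE 0.04) had an adjusted P of 5.52e-09 by edgeR. The ratio of Stmn2 to Stmn3 counts was 2.85, 2.63 and 2.65 in WT and 2.36, 2.37 and 2.32 in Fmr1-KO, which did not overlap, with a log2 difference of -0.20 (exact permutation test, 2-sided, P = 0.1, n = 3 per genotype). Of the other stathmins, Stmn1, the stathmin of most dividing cells, had a log2 fold-change of 0.07 that did not pass (adjusted P 0.122 by edgeR) and Stmn4 fell only slightly (-0.12, adjusted P 0.00542). Stmn1 and Stmn4, too, were singled out after their values had been seen.

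**Figure D3:**
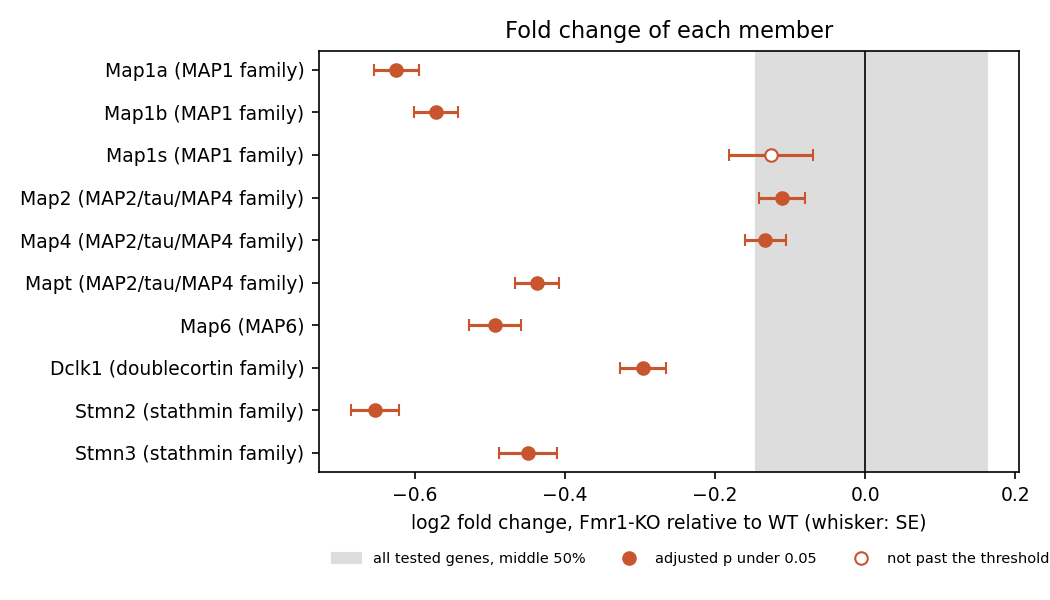
Log2 fold-change of each gene in Fmr1-KO relative to WT (horizontal axis, point with SE), with its family. Filled points passed an adjusted P of 0.05, the open point is Map1s, and the grey band is the middle 50% of all tested genes, from -0.14 to 0.16. Map1s, Map2 and Map4 lie within the band and the other 7 genes to its left.

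The 10 genes were put in order by level after division by length, as CPM per kilobase of annotated exon. This scale understates genes whose many isoforms are counted in the length. In WT the order was Stmn3 (192 ± 8.31), Mapt (169.9 ± 2.94), Map1b (125 ± 3.47), Stmn2 (105 ± 0.146), Map2 (72.0 ± 2.39), Dclk1 (44.6 ± 0.778), Map4 (36.1 ± 0.404), Map1a (24.0 ± 0.652), Map6 (16.1 ± 0.438) and Map1s (5.36 ± 0.337) in CPM per kilobase (SD, n = 3). Each gene was above the next in every library. The order in Fmr1-KO was the same, but Stmn2 (67.0 ± 3.06) and Map2 (66.7 ± 1.58) had come to overlap. Read counts as shares of the 10-gene total changed accordingly. Map1b made up 28.4% ± 0.465 in WT and 25.1% ± 0.458 in Fmr1-KO, and Map4 made up 7.86% ± 0.156 and 9.42% ± 0.0256 (SD, n = 3 each).

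The annotation of the genes was examined for features they share. None had exons overlapping those of another gene on its strand, which is the strand counted. Only Map1s had transcripts annotated as NMD substrates (2 of its 11 transcripts), against 27.4% of the 14522 tested protein-coding genes with at least 1. This annotation is separate from the experiments by which the study defined its NMD targets. The longest stretch annotated after the stop codon was 4360 bases in Map1b, 3903 in Mapt and 5437 in Dclk1, and 305 bases in Stmn3. Gene-level counts do not tell isoforms or pre-mRNA apart.

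As the neuronal markers were lower too, each gene was set against them within each library. The measure was the log2 count of a gene minus the mean log2 count of the 14 pan-neuronal markers, of which 12 fell, 1 rose and 1 did not pass (median log2 fold-change -0.60). On this scale Stmn2 differed by -0.01 between Fmr1-KO and WT, Map1a by 0.02 and Map1b by 0.07, with overlapping libraries. These values depended on the panel. With Gap43, Nefl, Nefm and L1cam, the markers tied to neurite growth, left out, Stmn2 was at -0.21, Map1a at -0.17 and Map1b at -0.12, each without overlap, and with the median of the markers Stmn2 was at -0.10. Nefl, Nefm and Gap43 fell the most of the 14 markers (log2 fold-changes of -1.90, -1.35 and -0.97), L1cam less (-0.33). Leaving these 4 out therefore lowers all 10 genes by the same amount. Map6 was higher by 0.15 and Stmn3 by 0.20 relative to the markers, values that became -0.0442 and -0.00066 without those 4 markers. Mapt was higher by 0.21, but by 0.0117 without those 4 markers, with overlapping libraries. Dclk1 was higher by 0.35 (0.15 without the 4 markers), Map4 by 0.51 (0.32), Map1s by 0.52 (0.32) and Map2 by 0.54 (0.34), the genotypes staying apart for these 4 genes in both panels. For Map4 the values were 2.22, 2.13 and 2.20 in WT and 2.69, 2.73 and 2.69 in Fmr1-KO, well apart. For Map1b they were 4.08, 4.03 and 4.01 in WT and 4.08, 4.17 and 4.09 in Fmr1-KO, which overlapped. Of the 10 comparisons, 7 had no overlap and reached the smallest P that 3 against 3 libraries allow, 0.1 (exact permutation tests, 2-sided). The Benjamini-Hochberg adjusted value of these 7 was 0.143. As the markers fell on average, a gene with an unchanged level would also be higher on this scale. The share of all tested genes without overlap on it was not computed. The count of 7 therefore does not set these genes apart from others.

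**Figure D4:**
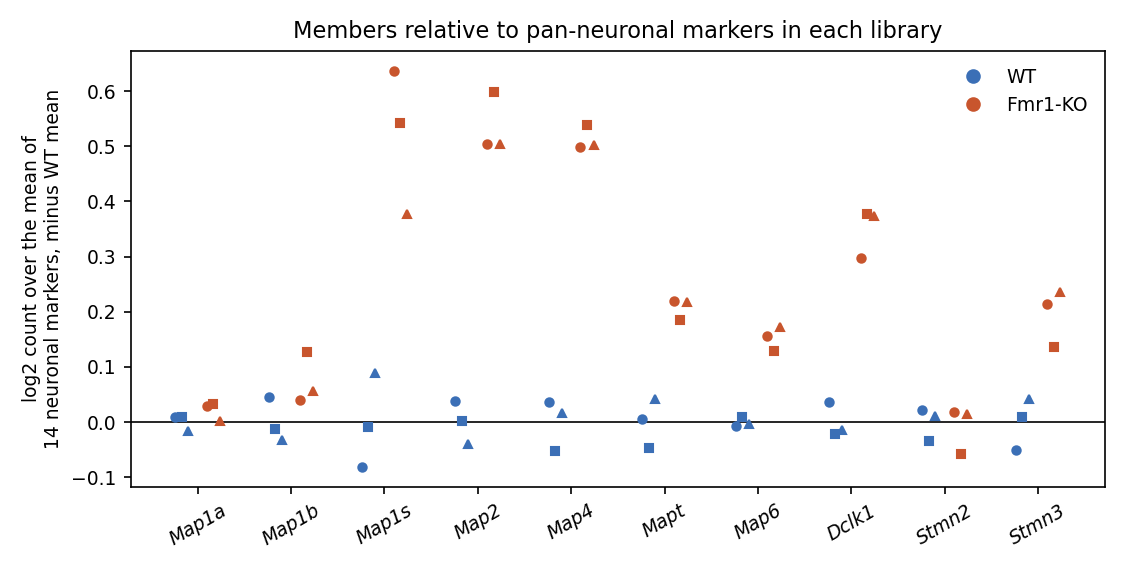
Log2 count of each gene over the mean of 14 pan-neuronal markers in each library, minus the WT mean (vertical axis). Circles, squares and triangles are replicates 1, 2 and 3. Fmr1-KO points of Map1s, Map2 and Map4 lie highest, while those of Map1a, Map1b and Stmn2 overlap those of WT.

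The genes with the most similar pattern to Map1b and Mapt were sought among 10762 others with a mean of at least 10 CPM, by the root mean square difference in log2 CPM, centred on the WT mean, over the 6 libraries. For Map1b they were Plppr1 (0.0105), Fat3 (0.0239) and Impdh1 (0.0253), with log2 fold-changes of -0.57, -0.58 and -0.57. Plppr1 encodes a membrane protein of neurons, Fat3 an atypical cadherin, and Impdh1 an enzyme of guanine nucleotide synthesis. For Mapt they included Usp12 (0.00972) and Lhx6 (0.0182), both with a log2 fold-change of -0.44. Usp12 encodes a deubiquitinase and Lhx6 a transcription factor of interneurons. The likeness describes these 6 libraries only.

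Finally, the rest of the microtubule machinery was described from 6 lists of other genes. Of 95 tested, 42 were lower, 21 were higher and 32 did not pass, with a median log2 fold-change of -0.03. The counts below are to be read against the 21.9% of all tested genes that were lower and the 20.7% that were higher. Among 20 other structural MAPs and relatives, 9 were lower and 4 higher. Map6d1, a relative of Map6, fell from 23.4 ± 2.35 to 12.6 ± 0.694 CPM (SD, n = 3 each), with a log2 fold-change of -0.89, and Map7d2, which binds along microtubules and recruits kinesin, had a log2 fold-change of -0.71. Eml5 (0.36) and Tppp3 (0.26) rose.

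Of 18 proteins that bind microtubule ends or cross-link them, 10 were lower and 2 higher. When a fold change above 1.2 was required, 2 were lower and 0 higher. Nav2, a neuron navigator, and Dst, a cross-linker of the cytoskeleton, had log2 fold-changes of -0.55 and -0.35, whereas Ckap5, a microtubule polymerase, and Clasp1, a stabilizer of plus ends, had 0.16 and 0.09. Among 20 severing and tubulin-modifying enzymes, 5 were lower (3 without WT replicate 2) and 4 higher, close to the shares over all tested genes. Agtpbp1, which removes glutamate residues from tubulin, and Vash1, which removes its terminal tyrosine, had values of -0.57 and -0.33, and Fignl1 and Katnal2, relatives of severing enzymes, had 0.54 and 0.48. All 8 of these genes passed by edgeR.

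Kinases and phosphatase subunits that act on MAPs were lower in 10 of 14 cases and higher in 0. Only 2 were lower, and 0 higher, when a fold change above 1.2 was required. Cdk5r2, which encodes the p39 activator of the tau kinase CDK5, fell most, from 64.5 ± 2.95 to 20.7 ± 2.01 CPM (SD, n = 3 each), with a log2 fold-change of -1.63 and an adjusted P of 4.84e-15 by edgeR. Mapk8 (JNK1) had a log2 fold-change of -0.35. Cdk5r1, for the p35 activator, did not pass (0.02, adjusted P 0.702 by edgeR), which was noted after its value had been seen. Of 13 tested tubulins, 8 were lower and 1 higher (2 higher with library totals alone, 3 without Fmr1-KO replicate 2). With a fold change above 1.2 required, 4 tubulins were lower and 0 higher. Tuba4a and Tubb4a fell by 0.92 and 0.69 on the log2 scale, and Tuba1c rose by 0.31, but tubulin genes are close copies whose reads may be divided wrongly between them.

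In contrast, all 10 MAPs of the mitotic spindle were higher (median log2 fold-change 0.62, 10 of 10 genes), Prc1 and Nusap1 by the most (0.73 and 0.69). Prc1 bundles the midzone of the spindle and Nusap1 binds spindle microtubules. These genes moved with the proliferation markers described above, and the part of dividing cells in their change was not tested.

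**Figure D5:**
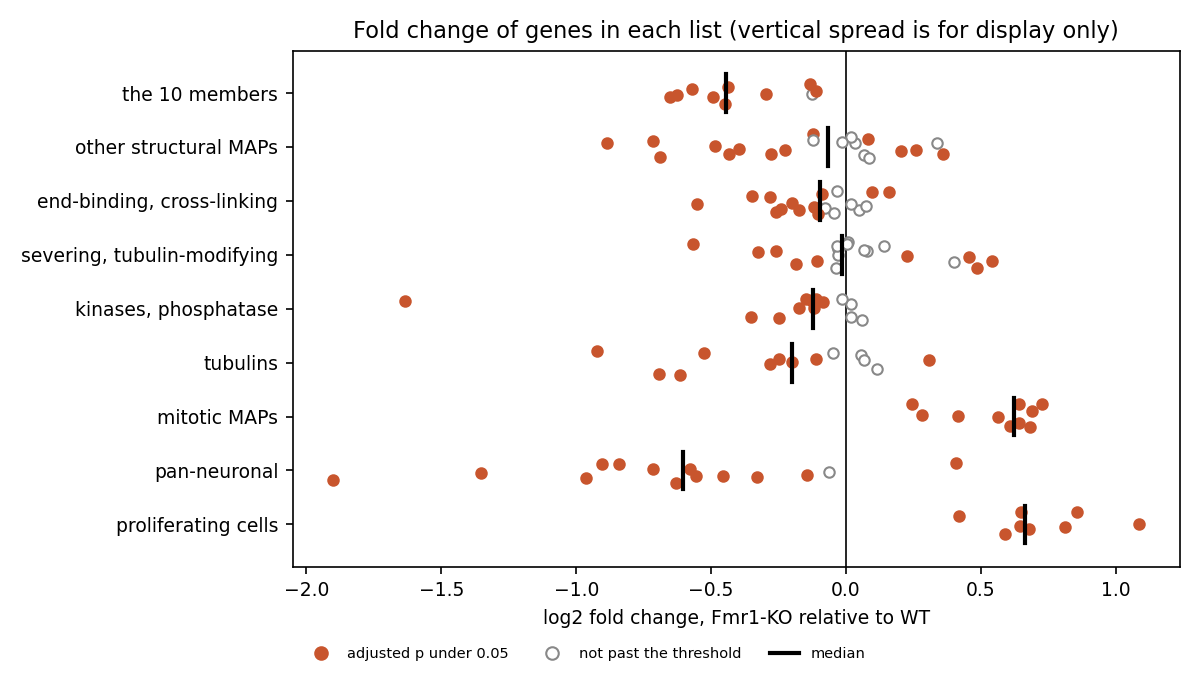
Log2 fold-change in Fmr1-KO relative to WT (horizontal axis) of each gene in the 10-gene set, in 6 lists of other microtubule genes and in 2 marker lists, with medians as vertical bars. The 10 genes, the tubulins and the pan-neuronal markers lie mostly to the left of 0, with medians of -0.44, -0.20 and -0.60, and mitotic MAPs and proliferation markers to the right.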

How the data were processed

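The 3 WT and 3 Fmr1-KO RNA-seq libraries were used, with genotypes from the labels. The values deposited by the authors are unnormalized read counts for each gene name. According to their methods and processing notes, 100-base single-end reads from a stranded poly(A) kit were trimmed with FastP, aligned to GRCm38.p6 with STAR and assigned to exons in reverse-stranded mode with featureCounts. Counting by strand separates antisense genes, but close copies remain uncertain. Depth was 30348556 to 35126207 counts per library.

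Genes were tested with edgeR 4.0.16 in R 4.3.3 (filterByExpr, TMM, quasi-likelihood F test, 2-sided, genotype only), with Benjamini-Hochberg adjustment over 16976 genes and a threshold of 0.05. SE is the log2 fold-change divided by the square root of F. Tested on simulated data for Fmr1-KO against WT (16799 genes), 100% of 200 genes changed by 0.5 log2 units were called and 0.0542% of the unchanged genes. The simulation gave every gene the same coefficient of variation between libraries, the 3.22% common to the real data, and changed only genes with many counts. It does not cover more variable genes or smaller changes such as those of Map1s, Map2 and Map4. Ratios within libraries were compared with exact permutation tests (scipy 1.17.1). GENCODE M21 (GRCm38) gave gene positions and exon lengths, and in it 98.6% of tested names were found. Upstream sequences came from RefSeq.

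Members and lists were chosen with earlier results of these data known. Genes named are the 10 members, Fmr1, the 3 genes most like Map1b or Mapt, and, per list of microtubule genes, the 2 largest called changes in each direction with a mean of at least 10 CPM, apart from relatives named as such and 4 markers left out of an alternative panel. Of the genes most like Mapt, 1 is not reported here. Alternatives were DESeq2 1.42.0, RLE, upper-quartile or no normalization beyond library totals, scaling without the 20 most abundant genes, no filter, a stricter filter (means of 10 counts and 5 CPM), a replicate block, a minimum fold change of 1.2, leaving out each library, and other marker panels.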

Additional observations from a re-analysis of the deposited data

How the results depend on the processing

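Every gene of the 10 kept a negative log2 fold-change under every alternative. The number called lower was 6 when a fold change above 1.2 was required, without Map2, Map4 and Dclk1, and 9 or 10 when libraries were left out one at a time. The median log2 fold-change was -0.42 with library totals alone, and from -0.47 (without Fmr1-KO replicate 3) to -0.41 (without Fmr1-KO replicate 2) with a library left out. A fold change above 1.2 left 1340 lower and 883 higher genes in all, as a stricter test calls fewer. Of the other lists, it left 6 structural MAPs and relatives lower and 0 higher. It left 1 severing or tubulin-modifying enzyme lower and 2 higher, and 8 mitotic MAPs higher and 0 lower.

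Relative to the neuronal markers, signs changed with the panel. With the median of the markers, Map1a was at -0.0725 and Map1b at -0.0201. With Gap43, Nefl, Nefm and L1cam left out, Map1a was at -0.17, Map1b at -0.12, Map6 at -0.0442 and Stmn3 at -0.00066. With these panels Stmn2 was at -0.10 and -0.21, Mapt at 0.11 and 0.0117 and Dclk1 at 0.26 and 0.15. Stmn2 ran from -0.0257 to 0.0160 when libraries were left out. It was above 0 when either WT replicate 1 (0.00222) or Fmr1-KO replicate 2 (0.0160) was omitted. The cause was not tested, and 3 against 3 libraries cannot reach a threshold of 0.05.

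Libraries that share a replicate number did not deviate together (correlations of -0.0668, 0.0593 and 0.0116), so the numbers give no pairing. With a replicate block, 9 of the 10 were again called lower, with a median of -0.44, and 3694 genes were lower and 3488 higher in all. Of 1123 values recomputed, 1081 stayed on the same side of 0 and of the threshold, or within the spread between replicates or 1.5 times a count. Under the rule for counts, the fall from 9 to 6 members called lower was scored as unchanged. For ratios and marker panels the side of the threshold was fixed in advance, as permutation tests cannot go below 0.1 here. For these only the sign could change. Map1s had the fewest reads of the 10, with 1194 to 1500 counts per library. Its levels also varied between libraries (42.7 ± 2.69 CPM in WT and 39.2 ± 3.17 CPM in Fmr1-KO, SD, n = 3 each).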
